A study of Homo sapiens with 20 samples.

Results

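The resting transcriptome of AC16 cells, an established human cell line, was described from the 5 mRNA libraries of cells that met filtered air at an air–liquid interface. These were all the filtered-air mRNA libraries, taken by their labels, out of 20 libraries in the series (10 mRNA and 10 miRNA). The labels give no age, passage or length of exposure for the cells, and describe only growth in DMEM/F12 with 10% serum. The medium also held penicillin and streptomycin, and the labels name no transgene and no agent other than the air. The series was made to study aerosol from an electronic cigarette, and neither the aerosol libraries nor the miRNA libraries were analysed here. Nothing in the labels says whether the 5 replicates came from separate cultures beyond the word biological, so the spread given here is the spread between these libraries.

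AC16 is a line made by fusing cells of adult human ventricle with a virally transformed human fibroblast line, and the fused cells divide in culture. Beating heart muscle is known for sarcomere proteins, for calcium release and re-uptake by the sarcoplasmic reticulum, and for natriuretic peptides, all driven by a core of transcription factors that includes NKX2-5, TBX5, GATA4 and MEF2C. Fibroblasts and other mesenchymal cells are known for collagens, fibronectin and vimentin. The label cardiomyocyte was checked against 16 lists of lineage markers with 258 genes in all, of which 85 were detected and 63 had no count in any library. A gene counts as detected when it had at least 1 CPM in all 5 libraries, where CPM is the count per 1000000 of the TMM-scaled library size. Over all protein-coding genes 59.4% were detected, the share beside which each list is to be read. Of 30 sarcomere genes, 5 were detected, among them FLNC, MYPN, TPM1 and TTN, and 15 had no count, as described below. The fibroblast markers VIM, COL1A1 and FN1 were among the mRNAs with the highest read shares. Other fibroblast markers, such as PDGFRA, DCN, TCF21 and S100A4, were near or under 1 CPM. The cells are therefore named AC16 and given no other cell type name.

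Gene counts summed to between 65902331 and 88806394 per library. A gene with no count in any library can have had up to 0.00746 CPM over the summed libraries (3 counts), and one with no count in a single library up to 0.0337 to 0.0460 CPM. These limits cover counting error only. Library 5 stood apart from the others. Its genes lay a median of 0.201 from the gene's median library on the log2 CPM scale, against 0.0960 to 0.109 in libraries 1 to 4, and it was the farthest library for 35.7% of 14550 genes. Libraries 1, 2 and 3 differed from 4 and 5 in mRNAs of liver and red blood cells, described below. No pair of libraries looked like a library deposited again, the smallest chi-square between 2 libraries being 59.3 per degree of freedom.

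Of 58735 gene identifiers, 12949 (22.0%) were detected, 27468 (46.8%) had no count in any library and 18318 lay between. Among 19138 protein-coding genes, 11369 (59.4%) were detected and 3662 had no count, with a median of 7.35 CPM over all of them. Of 5210 lncRNA genes, 472 were detected. Single libraries had between 14337 and 14595 genes at 1 CPM or more. A CPM is a share of reads, so it grows with the length of a transcript. No feature lengths were at hand, and the ranks below are ranks of read share, not of transcript number. The 65 genes with a mean over 1000 CPM held 19.1% of all counts, the 2255 genes between 100 and 1000 CPM held 51.4%, and the 7046 genes between 10 and 100 CPM held 27.1%. In each library, 844 to 919 genes held 50% of the counts.

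The highest read shares belonged to the mitochondrial genome. All 13 of its protein-coding mRNAs were detected and 10 of them were among the 25 genes with the highest mean CPM. Together they took 9.23% ± 0.966 of the counts (SD, n = 5), from 7.73% in library 5 to 10.2% in library 4. MT-CO1, a core subunit of cytochrome c oxidase, had 17517, 19216, 17321, 19470 and 16495 CPM in libraries 1 to 5. MT-ND5, a subunit of complex I, averaged 16805 ± 1871 CPM and MT-ND4, another, 16004 ± 1791 CPM (SD, n = 5 each). Library 5 was the lowest library and library 4 the highest for each of these 3 genes. Nuclear copies of mitochondrial sequence exist, and reads that match both may have been counted for either.

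Among nuclear mRNAs the highest read share was that of VIM, which encodes the intermediate filament vimentin of mesenchymal cells. It had 5665, 5849, 5667, 5842 and 5611 CPM in libraries 1 to 5, a coefficient of variation (CV, the SD over the mean) of 1.93%. The other nuclear protein-coding genes among the 25 encoded the translation factors EEF1A1 (4215 ± 380 CPM, SD, n = 5) and PABPC1 (2639 ± 245 CPM), the tubulins TUBA1B and TUBB, the chaperones HSP90AA1 and HSP90AB1, the glycolytic enzyme GAPDH, and the cytoskeletal proteins ACTB, MYH9 and AHNAK. The matrix proteins COL1A1 and FN1 completed the 13. COL1A1, the alpha-1 chain of type I collagen, had 2309, 2386, 2471, 2331 and 1932 CPM in libraries 1 to 5. FN1, fibronectin, had 2096, 2150, 2156, 2144 and 1970 CPM. Both matrix genes were lowest in library 5, and FN1 had a CV of 3.72%. AHNAK had 129 CPM in library 2 against 3259 to 3444 CPM in the other libraries.

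The 2 noncoding RNAs among the 25 were RN7SK, a small nuclear RNA that holds the elongation factor P-TEFb in check, and MALAT1, a nuclear long noncoding RNA. RN7SK took 0.327% to 0.746% of the counts and was highest in library 1 and lowest in library 5. MALAT1 took 0.291% to 0.390% and had the opposite ends, lowest in library 1 and highest in library 5. The 86 cytosolic ribosomal protein genes together took 2.69% ± 0.122 of the counts (SD, n = 5). Tubulin, actin, EEF1A1 and ribosomal protein genes have near-identical relatives or pseudogenes, so the split of reads within those families is uncertain. Just below the 25 lay HSPA8, the matrix glycoprotein THBS1 (1807 ± 195 CPM) and the receptor tyrosine kinase AXL (1793 ± 142 CPM, SD, n = 5 each).

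**Figure D1:**
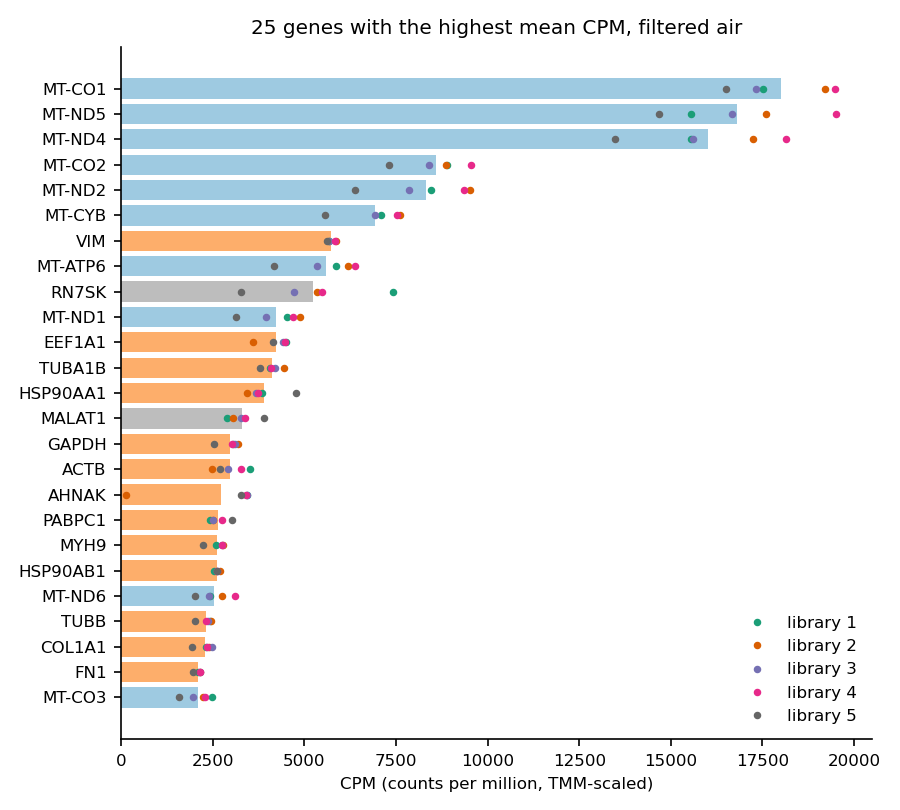
Bars show the mean CPM over 5 filtered-air libraries for the 25 genes with the highest mean, and dots show the single libraries (linear axis from 0). Blue bars are mitochondrially encoded mRNAs, orange bars nuclear protein-coding genes and grey bars noncoding RNAs. AHNAK in library 2, at 129 CPM, is the dot farthest below its bar.

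The sarcomere, the contractile unit of heart muscle, was represented by few of its mRNAs. Of 30 listed genes, 5 (16.7%) were detected and 15 had no count in any library, and the median of the list was 0.00957 CPM against 7.35 CPM over all protein-coding genes. The genes with no count were both cardiac myosin heavy chains (MYH6 and MYH7), the light chains MYL2, MYL3, MYL4 and MYL7, the troponins TNNT2 and TNNI1, the skeletal actin ACTA1, and also MYBPC3, CSRP3, MYOZ2, NEBL, XIRP2 and LMOD2. TNNI3, the adult cardiac troponin I, had 0, 0, 0.174, 0.660 and 0.629 CPM in libraries 1 to 5, and TNNC1 had counts in a single library. DES, the intermediate filament of muscle, averaged 0.740 ± 0.412 CPM (SD, n = 5). The cells gave RNA in bulk, so fewer cells of a type and less RNA per cell cannot be told apart.

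The sarcomere-list genes that were detected included FLNC, MYPN, TPM1 and TTN. FLNC, the muscle filamin, had 888, 932, 820, 796 and 586 CPM in libraries 1 to 5, and was lowest in library 5. MYPN, which encodes the Z-disc protein myopalladin, had 206, 214, 190, 199 and 175 CPM. TPM1, a tropomyosin that nonmuscle cells also make in other splice forms, averaged 172 ± 20.3 CPM (SD, n = 5). TTN, the giant spring protein titin, had 32.1, 30.9, 28.0, 21.2 and 26.3 CPM. Every library held reads of each of these, in contrast to the myosins, light chains and troponins named above. Read share grows with transcript length, so the level of TTN cannot be set against those of shorter genes.

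Promoter sequences are shown for a pair of sarcomere actin genes with few or no reads and for a pair of genes with many, to set the letters beside the levels. ACTC1, the cardiac actin, had 0.203, 0.0596, 0.996, 0.828 and 0.348 CPM in libraries 1 to 5, and ACTA1, the skeletal actin, had no count. FN1 was given above, and MKI67, the proliferation marker Ki-67, had 1482, 1445, 498, 556 and 564 CPM. Each sequence is the 250 bases before the RefSeq gene start, read 5′ to 3′ on the gene's strand in build GRCh38.p14. Capitals mark CArG boxes (the serum response factor motif), the TATA box letters (TATAAA), the CAAT box letters (CCAAT) and the GC box letters (GGGCGG). Both strands were searched, so a match can appear as its reverse complement. Matches may overlap. The ACTC1 window is chr15:34795550-34795799 on the minus strand, the ACTA1 window chr1:229434095-229434344 on the minus strand, the FN1 window chr2:215436069-215436318 on the minus strand and the MKI67 window chr10:128126424-128126673 on the minus strand.
ACTC1: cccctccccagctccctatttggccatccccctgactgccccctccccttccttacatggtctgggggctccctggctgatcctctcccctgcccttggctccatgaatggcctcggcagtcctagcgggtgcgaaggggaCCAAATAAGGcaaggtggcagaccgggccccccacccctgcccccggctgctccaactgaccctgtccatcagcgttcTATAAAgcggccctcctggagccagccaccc
ACTA1: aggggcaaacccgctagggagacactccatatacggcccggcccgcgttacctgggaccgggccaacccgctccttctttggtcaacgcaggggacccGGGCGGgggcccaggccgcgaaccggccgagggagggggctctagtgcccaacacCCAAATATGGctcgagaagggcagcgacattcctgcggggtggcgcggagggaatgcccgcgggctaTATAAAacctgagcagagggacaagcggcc
FN1: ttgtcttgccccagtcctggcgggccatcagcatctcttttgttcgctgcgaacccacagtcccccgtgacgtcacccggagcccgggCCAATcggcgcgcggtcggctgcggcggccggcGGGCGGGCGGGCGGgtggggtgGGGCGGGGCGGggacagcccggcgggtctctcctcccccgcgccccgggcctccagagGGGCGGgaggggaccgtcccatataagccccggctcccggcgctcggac
MKI67: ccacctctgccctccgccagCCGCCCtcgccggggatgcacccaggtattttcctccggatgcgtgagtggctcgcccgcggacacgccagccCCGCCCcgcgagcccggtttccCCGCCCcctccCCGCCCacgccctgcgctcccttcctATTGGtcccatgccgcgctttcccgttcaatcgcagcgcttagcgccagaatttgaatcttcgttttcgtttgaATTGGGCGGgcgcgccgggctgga

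Both actin windows held a CArG box and a TATAAA, and neither the FN1 nor the MKI67 window held either of these. The 4 windows are examples and do not stand for their lists. Of the 20 matched windows of sarcomere-list genes, 5 held a CArG box and 4 held TATAAA. Of the 14 of fibroblast-list genes, 0 held a CArG box and 4 held TATAAA. Of the 10 of smooth muscle-list genes, 2 held a CArG box, those of MYLK (370 to 496 CPM) and ACTG2, and 2 held TATAAA. A CArG box stood in 0 of the 15 windows of mitotic genes and 0 of the 16 of DNA replication genes. A CArG box stood in 1.22% of all 15294 matched windows of protein-coding genes (from 250 bases before to 50 bases after the start), TATAAA in 9.61%, CCAAT in 36.6% and GGGCGG in 59.2%. These windows cover just under 80% of the 19122 protein-coding gene symbols, so the shares describe the matched windows only. SRF, the factor that binds CArG boxes, had 42.7, 46.3, 44.7, 46.9 and 32.9 CPM in libraries 1 to 5. MYOCD, its cofactor in muscle, had 0.286 to 2.03 CPM. A match describes letters in these windows and shows no binding.

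Cardiac transcription factors were partly present, in a smaller share than the 59.4% of all protein-coding genes. Of 27 listed, 11 (40.7%) were detected and 7 had no count in any library, namely NKX2-5, TBX5, ISL1, HAND1, GATA5, IRX4 and SMYD1. GATA4, a zinc finger factor of heart development, had 18.2, 22.0, 10.7, 6.12 and 8.76 CPM in libraries 1 to 5, a spread of more than 3-fold with libraries 1 and 2 at the top. GATA6, its relative, stayed within 5.80 to 6.6 CPM. Among the MEF2 factors, MEF2A averaged 103 ± 19.1 CPM and MEF2D 40.1 ± 10.0 CPM (SD, n = 5 each), whereas the heart-enriched MEF2C had 2.38 to 3.67 CPM. TBX3, a T-box repressor of the conduction system, had 81.1, 79.0, 75, 44.8 and 69.2 CPM. HAND2, a basic helix-loop-helix factor of the developing heart, averaged 1.56 ± 0.351 CPM (SD, n = 5).

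Genes of excitation and calcium handling were mostly under 1 CPM. Of 24 listed, 6 (25%) were detected, 14 had a mean under 1 CPM and 3 had no count (CASQ2, TRDN and KCNH2). ATP2A2, the calcium pump SERCA2 that both heart muscle and other cells use, had 724, 432, 532, 675 and 468 CPM in libraries 1 to 5. Its cardiac regulator PLN averaged 0.282 CPM, and RYR2, the calcium release channel of heart muscle, had 0.0478 to 0.336 CPM. Also detected were the connexins GJC1 (125 to 193 CPM) and GJA1 (11.5 to 21.7 CPM), the sodium-calcium exchanger SLC8A1 (36.2 to 50.8 CPM), the junctional protein JPH2 and the potassium channel KCNJ2. CACNA1C, the L-type calcium channel, had 0.932 to 2.96 CPM and so fell below 1 CPM in at least 1 library.

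Of 17 genes for natriuretic peptides and muscle metabolism, ANKRD1, a stretch-responsive muscle protein, was the only one detected, with 6.93, 5.24, 8.28, 7.30 and 10.8 CPM. Without library 1 the count was 2, as CPT1B, the muscle carnitine palmitoyltransferase, had 0.538 CPM there and at least 2.58 CPM elsewhere. NPPB, MB (myoglobin), COX6A2, HSPB7 and PLIN5 had no count, and NPPA averaged 0.211 CPM. Skeletal muscle markers gave 2 of 20 detected. These were TNNT1, slow skeletal troponin T, with 42.1 to 56.1 CPM, and MYH8, the perinatal myosin, with 1.07 to 2.42 CPM. MYF5, MYF6, MYOG and RYR1 had no count. Skeletal myosin genes resemble each other closely, so the reads assigned among them are uncertain.

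Related genes were set side by side in 23 pairs, a form known from muscle and another form. The pairs are of mixed kind: TNNI3 and TNNI1 are both muscle troponins, RYR2 and ITPR3 are different channel types, and ATP2A2 is also used outside muscle. In 14 pairs the other form alone was detected, in 6 both were, in 3 neither was, and in 0 the muscle form alone. The other forms included the nonmuscle myosin heavy chain MYH9 (2619 ± 225 CPM, SD, n = 5) beside MYH7 with no count, and the nonmuscle actinin ACTN4 (744 ± 82.6 CPM) beside ACTN2 (0.207 ± 0.220 CPM). In energy metabolism, ENO1 had 1602 ± 117 CPM beside ENO3 at 1.17 ± 0.676 CPM, PYGL had 185 ± 11.4 CPM beside PYGM at 0.0574 ± 0.0827 CPM, and COX6A1 had 137 ± 15.1 CPM beside COX6A2 with no count. Creatine kinase was read as CKB (17.1 ± 7.10 CPM) and hardly as CKM (0.0123 ± 0.0274 CPM). The pairs with both forms detected were PFKM with PFKP, LDHB with LDHA, FLNC with FLNA, SLC25A4 with SLC25A5, ATP2A2 with ATP2A3, and SUCLA2 with SUCLG2. LDHA, the form that favours lactate, had 699 ± 59.1 CPM and LDHB, the heart form, 247 ± 35.0 CPM.

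Fibroblast markers were detected in 19 of 23 cases (82.6%), with a list median of 148 CPM and a summed level of 13188 to 14244 CPM. None had a mean of 0. Beyond VIM, COL1A1 and FN1, the genes with the highest read shares were SPARC, a matrix glycoprotein, with 815, 844, 842, 922 and 889 CPM, the collagen cross-linking enzyme LOX (480 to 577 CPM) and the collagen receptor DDR2 (453 to 507 CPM). The collagens COL1A2, COL6A3, COL6A1, COL6A2, COL5A1 and COL3A1 averaged 126 to 390 CPM. A few fibroblast markers were near or under 1 CPM. PDGFRA had 0.706 to 3.22 CPM, the proteoglycan DCN 0.568 to 3.56 CPM, TCF21 0.511 to 2.29 CPM and S100A4 0.0747 to 0.775 CPM.

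Of 13 smooth muscle markers, 10 (76.9%) were detected, among them the light chain kinase MYLK (370 to 496 CPM), the light chain MYL9 (253 to 341 CPM), TPM2 (228 to 301 CPM), CALD1 (220 to 293 CPM) and SMTN (119 to 176 CPM). TAGLN had 80.8, 71.2, 92.3, 59.6 and 68.7 CPM. The contractile markers ACTA2, with 0.467, 1.72, 0.623, 1.76 and 2.61 CPM, and MYH11, with 1.17 to 2.12 CPM, were near 1 CPM. All 8 pericyte markers were detected, led by the proteoglycan CSPG4 (129 to 197 CPM), the peptidase ANPEP (102 to 137 CPM), MCAM (54.2 to 84.8 CPM) and PDGFRB (42.5 to 48.4 CPM). Of 6 epicardial markers, 4 were detected. BNC1, a zinc finger factor, had 151, 76.7, 151, 74.9 and 163 CPM and so fell into a lower pair and a higher trio of libraries, whereas TBX18 stayed within 39.5 to 44.2 CPM. ALDH1A2, which makes retinoic acid, averaged 27.7 ± 3.35 CPM and WT1 5.69 ± 1.37 CPM (SD, n = 5 each), while UPK3B had no count.

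Leukocyte, endothelial and epithelial markers were detected in smaller shares than the 59.4% of all protein-coding genes. No leukocyte marker of 18 was detected, the list summed to 4.17 to 7.08 CPM, and CD3E, CD8A, MS4A1 and AIF1 were among those with no count. Without library 4 the count was 1, since LCP1 had 0.920 CPM there and 1.03 to 1.49 CPM elsewhere. Of 18 endothelial markers, 4 were detected, of which ENG, a TGF-beta co-receptor, had 182, 150, 159, 121 and 121 CPM. The list summed to 130 to 196 CPM, nearly all of it ENG, PECAM1 averaged 0.227 CPM, and CDH5, ERG, ESAM, SOX17 and MMRN1 had no count. Of 17 epithelial markers, 4 were detected, including the simple keratins KRT18 (156 to 245 CPM) and KRT8 (22.4 to 29.0 CPM). CDH1, E-cadherin, averaged 0.206 CPM, and KRT5, KRT14 and GRHL2 had no count.

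The neural and glial list gave 5 of 13 detected, among them the tubulin TUBB3 and the vesicle fusion protein SNAP25 (16.9 to 24.5 CPM). TUBB3 had 49.6, 58.1, 53.2, 46.2 and 14.5 CPM, lowest in library 5, and NEFL, NEFM and S100B had no count. Of 8 adipocyte markers, PPARG (3.53 to 4.36 CPM) and LIPE were detected, and ADIPOQ, LEP and FABP4 had no count. No pluripotency marker of 8 was detected, and SOX2, NANOG, ZFP42 and TDGF1 had no count. LIN28A had 0.861 CPM in library 1 and at least 1.52 CPM elsewhere, so 1 of 8 was detected without that library. Mesenchymal transcription factors, by contrast, were detected in 19 of 25 cases (76.0%) with a median of 17.7 CPM. Over all protein-coding genes the share was 59.4% and the median 7.35 CPM. ZEB2, a repressor of epithelial genes, had 166 to 211 CPM, RUNX1 106 to 134 CPM, and TWIST1 and TWIST2 averaged 27.5 and 35.4 CPM. SNAI2, another such repressor, had 78.9, 17.6, 32.4, 22.6 and 67.2 CPM, and YAP1, the Hippo pathway coactivator, had 151, 161, 59.7, 85.5 and 88.0 CPM. These last 2 genes varied between libraries far more than ZEB2 did.

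**Figure D2:**
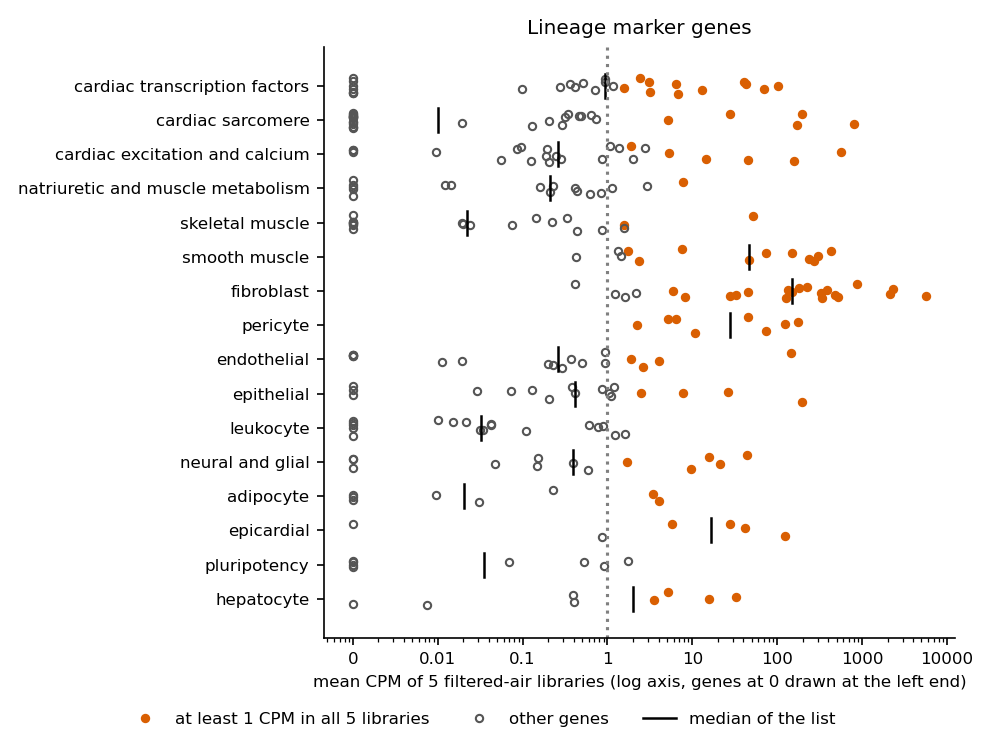
Each circle is a marker gene at its mean CPM over 5 filtered-air libraries (log axis, genes with no count at the left end), with 1 row for each of the 16 lineage lists. Filled circles were detected in all 5 libraries, the dotted line is 1 CPM and the short black bar is the list median. The fibroblast, smooth muscle and pericyte rows lie mostly right of the line, the cardiac sarcomere and leukocyte rows mostly left of it.

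HOX genes, which record position along the body axis, were detected in 23 of 39 cases (59.0%). This is close to the 59.4% over all protein-coding genes, and HOXD13 alone had no count. By cluster, 9 of 11 HOXA, 8 of 10 HOXB, 3 of 9 HOXC and 3 of 9 HOXD genes were detected. By paralogue group, 7 of 12 genes of groups 1 to 4, 8 of 11 of groups 5 to 8 and 8 of 16 of groups 9 to 13 were detected. The highest read share was that of HOXA9, with 31.5, 32.1, 39.3, 27.5 and 29.1 CPM in libraries 1 to 5. HOXB2 came next with a mean of 22.5 CPM and the wider range of 6.96 to 28.0 CPM. HOXB7 (11.8 to 18.4 CPM), HOXB3 (11.9 to 16.3 CPM), HOXB9 (12.4 to 19.3 CPM) and HOXC8 (9.55 to 12.7 CPM) had lower means. Genes of the far posterior groups were present in the A and D clusters, where HOXA13 had 5.10 to 11.2 CPM, HOXD10 6.04 to 9.89 CPM and HOXD11 4.46 to 6.26 CPM.

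A pair of HOX genes had a single low library. HOXB2 had 25.1, 6.96, 27.5, 28.0 and 25.1 CPM, low in library 2, and HOXA10 had 11.2, 6.96, 16.4, 11.6 and 0.697 CPM, low in library 5. Their neighbours HOXB3 and HOXA9 were not low in those libraries. HOX genes overlap antisense and readthrough transcripts, and without knowledge of strand use in the counting their reads cannot be told apart.

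**Figure D3:**
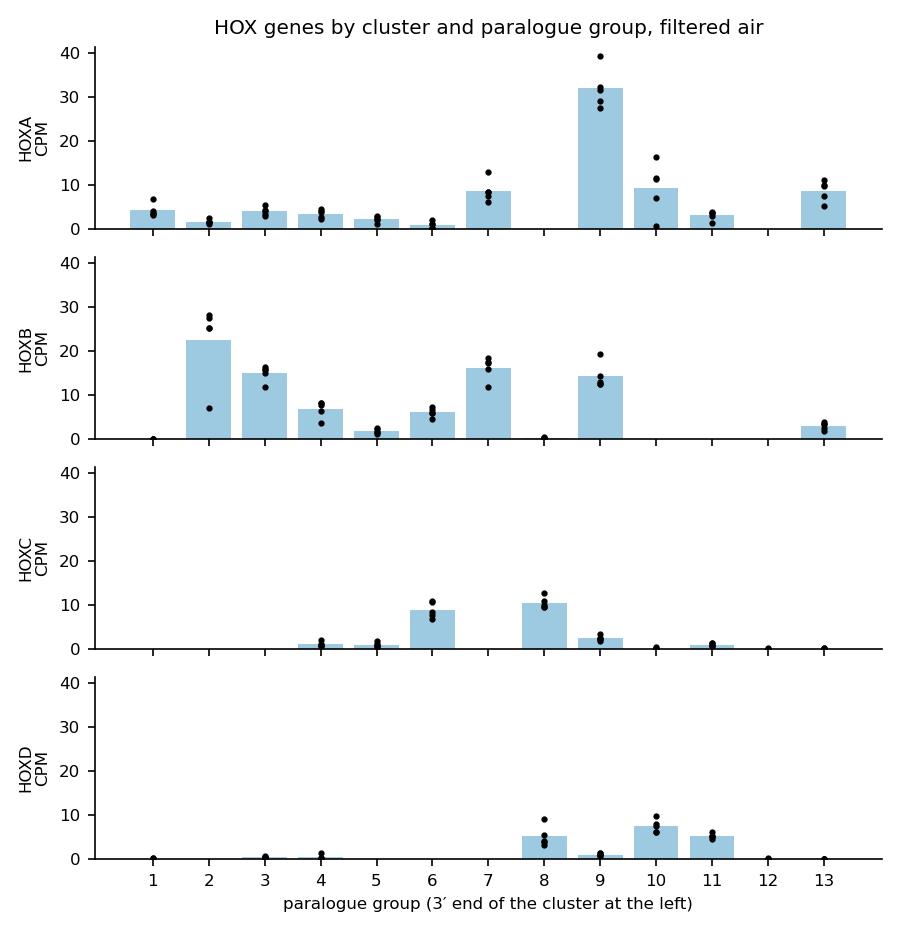
Bars show the mean CPM of each HOX gene over 5 filtered-air libraries and dots the single libraries (linear axes from 0, shared by the 4 panels, 1 for each cluster), with paralogue groups from 1 to 13 along each cluster. HOXA9 has the tallest bar, at 31.9 CPM, and the HOXC and HOXD panels are empty at most positions.

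The division programme was fully present. All 20 mitotic genes and all 20 DNA replication genes listed were detected, beside 59.4% of all protein-coding genes. Their list medians were 234 and 184 CPM, against 7.35 CPM over all protein-coding genes. TPX2, a spindle assembly factor, had 1281, 1381, 1397, 1330 and 1379 CPM, and TOP2A, the topoisomerase that untangles chromosomes, had 982, 977, 926, 965 and 1213 CPM. MCM4, a subunit of the replicative helicase, had 523 to 551 CPM, with a CV of 2.04%. MKI67 varied more, with libraries 1 and 2 at 1482 and 1445 CPM and the others at 498 to 564 CPM. FOXM1, a mitotic transcription factor, had 178, 407, 388, 174 and 328 CPM.

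Of 15 cell cycle inhibitors and genes of growth arrest, 12 (80.0%) were detected, beside 59.4% of all protein-coding genes. RB1, the retinoblastoma pocket protein, had 170 to 256 CPM and CDKN2A, which encodes the inhibitor p16, 100 to 179 CPM. CDKN1A, the inhibitor p21, had 27.2 to 31.6 CPM, while GDF15 and BBC3 averaged 0.448 and 0.314 CPM.

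Growth factor and cytokine receptors were detected in 25 of 30 cases (83.3%), beside 59.4% of all protein-coding genes. The list median was 75.1 CPM. AXL had 1853, 1946, 1862, 1723 and 1582 CPM, EGFR 530, 531, 448, 471 and 478 CPM, and NOTCH2 465 to 489 CPM with a CV of 2.44%. IL6ST, the shared signal chain of the IL-6 family, had 359 to 487 CPM, and MET, the receptor for hepatocyte growth factor, had 347 to 404 CPM. ERBB4 averaged 0.105 CPM and FGFR2 had no count.

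Receptors for adrenergic, muscarinic, peptide and lipid ligands were detected in 16 of 31 cases (51.6%), beside 59.4% of all protein-coding genes. F2R, the thrombin receptor, had 141 to 173 CPM and S1PR3, a sphingosine phosphate receptor, 33.7 to 37.8 CPM. LPAR1, the lysophosphatidic acid receptor, had 159, 152, 77.8, 82.2 and 81.2 CPM, which put libraries 1 and 2 above the others. AGTR1, the angiotensin receptor, had 11.9 to 28.2 CPM. ADRB1, a cardiac beta-adrenergic receptor, was detected at 2.33 ± 0.826 CPM (SD, n = 5), and ADRA1A, ADRA2B, ADRB3 and AGTR2 had no count.

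Nicotinic acetylcholine receptor subunits, the targets of nicotine, were detected in 3 of 16 cases (18.8%), beside 59.4% of all protein-coding genes. The list median was 0.123 CPM. CHRNA5 had 12.8, 9.30, 7.25, 18.2 and 16.7 CPM, CHRNB1 3.51 to 7.05 CPM and CHRNA3 1.29 to 2.42 CPM. CHRNA7, which forms receptors by itself, had 0.0598, 0.0358, 0, 0 and 0.348 CPM. CHRNA1, CHRNA2, CHRNA9 and CHRNB3 had no count, and CHRNB4, the usual partner of CHRNA3, averaged 0.0215 CPM.

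Genes of xenobiotic and redox defence were detected in 22 of 33 measured cases (66.7%), beside 59.4% of all protein-coding genes. TXNRD1, thioredoxin reductase, had 552 to 752 CPM, and NQO1, a quinone reductase, 395, 380, 371, 379 and 368 CPM. The metallothionein MT2A spanned more, with 509, 396, 339, 364 and 228 CPM, lowest in library 5, and its reads may be shared with other metallothioneins. The aryl hydrocarbon receptor AHR (115 to 161 CPM) and its partner ARNT (131 to 157 CPM) were detected, as was their target CYP1B1 (37.7 to 52.3 CPM), while CYP1A1 had 0.494 to 1.79 CPM. CYP2A6, the main nicotine-oxidising enzyme of liver, averaged 0.0191 CPM, and CYP1A2, CYP2B6 and CYP3A4 had no count.

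Among 22 immediate early genes, 18 (81.8%) were detected, beside 59.4% of all protein-coding genes. They were led by FOSL1 (228 to 338 CPM) and FOSL2 (187 to 226 CPM), whereas FOS had 1.81 to 3.61 CPM. Of 16 hypoxia genes, 14 (87.5%) were detected. ADM, adrenomedullin, stayed within 56.8 to 60.0 CPM, while PDK1, the kinase that holds back pyruvate oxidation, had 55.2, 18.8, 72.0, 67.3 and 21.5 CPM. Of 18 interferon response genes, 13 (72.2%) were detected. Among them were IFITM3 (61.9 to 91.0 CPM), which hinders the entry of viruses, and OAS3 (60.8 to 73.2 CPM), a sensor of double-stranded RNA. Of 20 cytokines and chemokines, 8 (40%) were detected, a smaller share than the 59.4%, led by CXCL12 with 236, 235, 238, 229 and 212 CPM. IL6 had 0.894 to 2.84 CPM, TNF averaged 0.0199 CPM, and CCL5, IL33 and CSF2 had no count.

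Agreement between the 5 libraries was described by the CV of each gene's CPM. Over the 8956 protein-coding genes averaging 10 CPM or more the median CV was 13.2%, with quartiles of 8.96% and 19.2%. It was under 5% for 485 of them and 50% or more for 165. Over all gene identifiers, protein-coding or not, the median CV fell with level. It was 31.4% for genes of 1 to 10 CPM, 14.6% for 10 to 100 CPM, 9.77% for 100 to 1000 CPM and 9.07% over 1000 CPM. At these levels counting error by itself would give a median of 6.21%, 1.98%, 0.849% and 0.285%. The common biological coefficient of variation from edgeR was 0.318 over 14550 genes. Without library 5 the median CV of protein-coding genes averaging 10 CPM or more was 10.4%.

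Library 5 differed by gene size. For genes of at least 10 CPM, its median deviation from the gene's median library was -0.12 on the log2 scale over the 2301 genes with the shortest genomic span (up to 14586 bases) and 0.06 over the 2300 with the longest (from 80667 bases). In libraries 1 to 4 the median deviation was 0 in both sets. A gene's own median library deviates by 0, so this measure can hide small shifts in those libraries. Span was known for 98.2% of these genes and includes introns. Library 5 was also the library with the lowest share of mitochondrial mRNA and of RN7SK, and the highest share of MALAT1. The part of span in these differences was not tested.

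The 12 protein-coding genes of at least 10 CPM with the lowest CV had CVs of up to 1.92% and included PTDSS1, a phosphatidylserine synthase, ADIPOR2, an adiponectin receptor, the RNA-binding protein ELAVL1, the kinase CDK12 and the nuclear import factor KPNB1. PTDSS1 had 101, 104, 103, 103 and 105 CPM, a CV of 1.40%. KPNB1 had 790, 783, 793, 809 and 767 CPM. Also among them were ZBTB40, PATL1, PIGG, DIMT1, ANXA7, TMEM43 and LONP2. Genes in common use as references differed in spread, among them IPO8 with a CV of 5.27%, SDHA with 5.34%, HPRT1 with 6.06%, GAPDH with 8.75%, ACTB with 14.1% and GUSB with 18.6%. GUSB thus varied more than 72.9% of the 8956 genes, and IPO8 more than 6.38% of them.

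The 12 with the highest CV were PEDS1-UBE2V1, BIVM-ERCC5, NME1-NME2, CHAMP1, SNX22, ATXN7 (under 1 of its 2 identifiers), ORAI2, ARPC5, LSM4, PPP1R18, HRH1 and TPP1. The 3 readthrough genes led this list, and each shares exons with the genes it spans. PEDS1-UBE2V1 had 61.9 CPM in library 2 and no count in the others, while UBE2V1 itself had 436 to 467 CPM. BIVM-ERCC5 had 61.6 CPM in library 5 and at most 0.0479 CPM elsewhere, and ERCC5, a DNA repair nuclease, had 5.35 CPM in library 5 against 44.3 to 52.8 CPM elsewhere. The sum of BIVM-ERCC5, ERCC5 and BIVM was 68.7, 75.3, 65.8, 81.1 and 77.4 CPM, a CV of 8.53%, while BIVM-ERCC5 and ERCC5 alone summed to 45.9, 52.9, 44.3, 52.3 and 66.9 CPM, a CV of 17.0%. The sum of PEDS1-UBE2V1 and UBE2V1 had a CV of 6.02%, beside 2.70% for UBE2V1 alone. NME1-NME2 had 0, 52.2, 0, 0 and 45.7 CPM beside NME2 with 161, 85.9, 145, 143 and 71.0 CPM, and their sum had a CV of 11.3%. The values of these genes are uncertain singly.

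**Figure D4:**
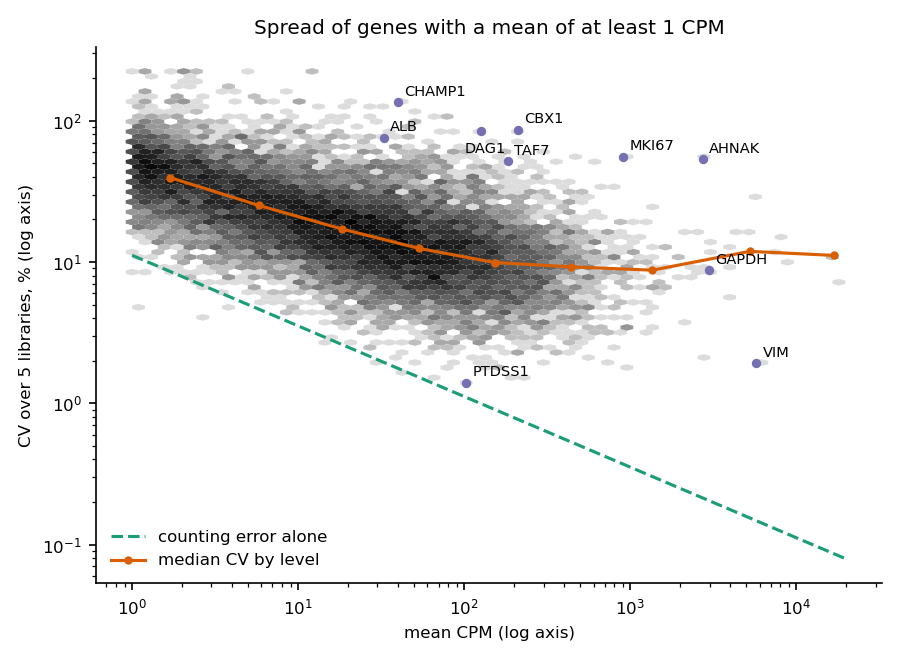
The CV over 5 filtered-air libraries (percent) is plotted against the mean CPM for genes averaging 1 CPM or more (both axes logarithmic, darker cells hold more genes). The orange line joins medians by level, and the dashed line is the CV that counting error alone would give. Named genes include VIM, with a CV of 1.93% near 5727 CPM, and AHNAK, with a CV of 53.3%.

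Some abundant genes fell into separate levels with nothing between. Of 9366 genes averaging 10 CPM or more, 318 (3.40%) had a gap of at least 2-fold between neighbouring libraries in their order, 67 (0.715%) a gap of at least 4-fold and 18 a gap of at least 8-fold. These genes were looked for after the values had been seen. Of the 67, 41 had a single low library, which was library 1 for 7 genes, library 2 for 5, library 3 for 6, library 4 for 10 and library 5 for 13. In 7 genes a single library was high. No library held all the low values, and in the others 2 or 3 libraries lay on each side.

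AHNAK, a giant scaffold protein of the cell cortex, had 3444, 129, 3422, 3408 and 3259 CPM. TAF7, a subunit of the general transcription factor TFIID, had 200, 16.8, 214, 242 and 242 CPM, and so was low in the same library. DAG1, the laminin receptor dystroglycan, had 210, 8.83, 9.42, 217 and 185 CPM. RAB5B, a GTPase of early endosomes, had 23.4, 158, 159, 154 and 152 CPM, and TOMM6, part of the mitochondrial import pore, had 100, 95, 106, 7.99 and 101 CPM. CBX1, the heterochromatin protein HP1 beta, split the other way, with 89.1, 411, 64.8, 410 and 79.7 CPM. CHAMP1, a zinc finger protein of chromosome alignment, had 137 CPM in library 5 and 12.8 to 18.9 CPM elsewhere. The values outside the low or high libraries lay close together for most of these genes, and the cause of the gaps was not tested.

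Messenger RNAs of liver and red blood cells were read in some libraries. ALB, serum albumin, had 39.0, 59.2, 52.1, 7.85 and 5.48 CPM, and APOA2, an apolipoprotein of high-density lipoprotein, had 14.8, 28.3, 27.1, 5.37 and 2.40 CPM. HBB, beta-globin, had 3.90, 3.98, 4.17, 0 and 0 CPM. In all of these, libraries 1, 2 and 3 lay above libraries 4 and 5. A set of 15 liver genes, chosen after their values had been seen, summed to 87.9, 128, 115, 19.3 and 14.0 CPM. All 15 were higher in each of libraries 1 to 3 than in either of the others. Over all 14550 genes averaging 1 CPM or more the same order held for 2224 (15.3%). As the 15 were chosen with their values known, they cannot be read against that share. HBA1, HBA2 and HBB summed to 11.4, 12.7, 13.6, 0 and 0 CPM, where HBA1 and HBA2 are near-identical copies whose reads may be shared.

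Of the 8 listed hepatocyte markers, 4 were detected, and the list summed to 11.1 to 103 CPM. HNF4A, a transcription factor that drives liver genes, averaged 0.00747 CPM and so was near 0. Of the 14550 genes averaging 1 CPM or more, 27 were at least 4-fold higher in every one of libraries 1 to 3 than in 4 and 5. In the opposite direction there were 8. VIM had no such order. The libraries were grouped this way after the liver and globin values had been seen, so these counts cannot be read as support for the grouping. The source of these mRNAs was not tested.

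**Figure D5:**
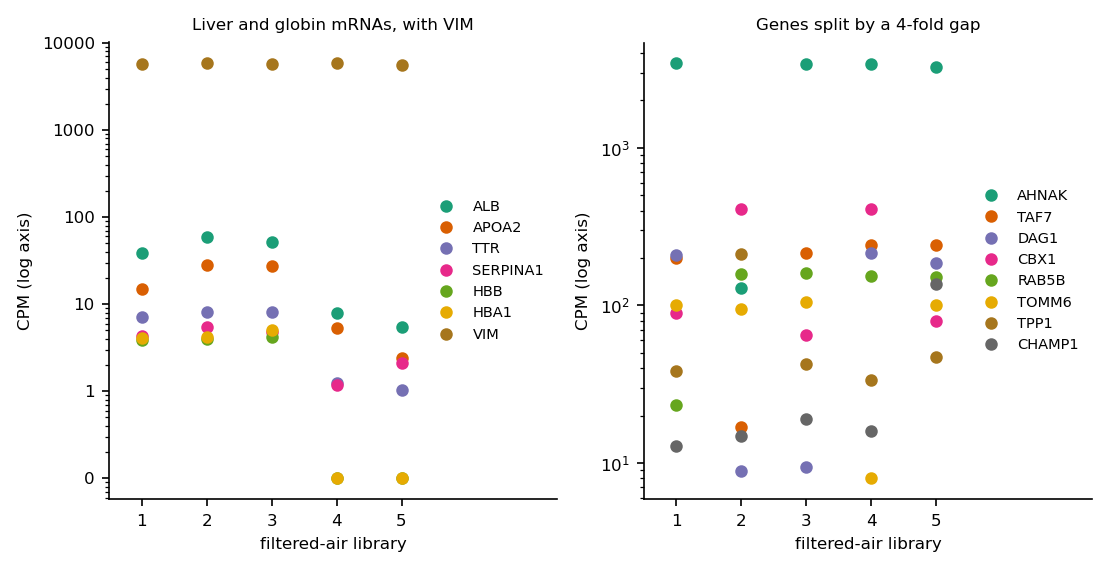
CPM (log axes) in filtered-air libraries 1 to 5 for liver and globin mRNAs beside VIM (left, values of 0 at the foot of the axis, where HBB and HBA1 overlap) and for 8 genes with a gap of at least 4-fold (right). On the left, every liver and globin mRNA is lower in libraries 4 and 5, while VIM stays between 5611 and 5849 CPM. On the right, AHNAK and TAF7 are low in library 2, DAG1 in libraries 2 and 3, RAB5B in library 1 and TOMM6 in library 4.

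Promoter letters were compared across levels where windows were known for at least 80% of the genes. Among protein-coding genes, the check is void for those at 0, up to 1 and 1 to 10 CPM, of which 74.2% to 79.8% had a window. GGGCGG, the letters of a GC box, stood in 71.6% of windows of genes of 10 to 100 CPM, in 75% of those of 100 to 1000 CPM and in 86.4% of the 44 windows of genes over 1000 CPM. CCAAT stood in 37.2%, 38.1% and 50% of these. TATAAA stood in 4.86%, 6.32% and 11.4% (5 of 44, Wilson 95% interval 4.95% to 24.0%). With the lower levels void, these shares give no trend over the whole range of levels. CACGTG, the letters of an E-box, stood in 10.3%, 11.8% and 6.82%. Over all matched windows, which include those of the void levels, it stood in 8.90%. A CArG box stood in 0.926%, 1.34% and 6.82% (3 of 44).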

How the data were processed

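AC16 mRNA was sequenced by the authors, who deposited whole-number counts per Ensembl gene for each library. Per the labels' protocols, the RNA was a TRIzol extract and the library kit SMARTER mRNA-Seq. The submitters' processing notes list the build hg38 and the tools featureCounts 1.5.0-p3, HISAT and DESeq 1.8.3. Settings, annotation release, strand use and the handling of reads that match several genes were not stated there or in the labels.

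The 5 filtered-air libraries were taken by their labels, and no other column of per-sample values was present (0). Counts (65902331 to 88806394 per library) were scaled by TMM with edgeR 4.0.16 in R 4.3.3 and given as CPM, with mean, SD and CV over 5 libraries. No comparison between groups was made and no p-value computed. The spread came from an intercept-only edgeR fit, with DESeq2 1.42.0 as an alternative, and the scripts were tested on simulated data. Symbols matched 58207 of 58735 identifiers, and biotypes and spans came from RefSeq (GRCh38.p14), which matched 40256. Promoter windows are RefSeq's, and the first listed window was used for genes with several.

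Levels per length had been planned, but no feature lengths were at hand, so CPM ranks were used instead. Named genes were the 25 with the highest mean CPM, the 5 highest of each of 30 lists, list members needed to describe absent markers, both genes of 23 isoform pairs, and the 12 protein-coding genes with the highest and the 12 with the lowest CV. The members and lists were chosen with earlier results of these data known. Genes with gaps between libraries, the liver and globin genes, the CArG motif and a few library-variable genes were chosen after their values were seen. Of the listed genes, 1 was not matched and was not used here. Replicate numbers name libraries only. Some of the genes the rule named are not reported here.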

Additional observations from a re-analysis of the deposited data

Results flagged for a closer look

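For 281 named genes the highest or lowest of the 5 libraries was compared with the rest by Dixon's gap ratio (critical value 0.71), which chance alone passes in about 1 group in 20. It was passed by 28 genes, and no cause was tested for any of them. Some of the 281 genes were named for a high CV or for a gap between libraries, so the 28 cannot be read against that rate.

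Library 5 was the lone high library for TOP2A (1213 CPM), CCNA2 (389 CPM), CALD1 (293 CPM), SUCLG2 (52.2 CPM), CHAMP1 (137 CPM) and BIVM-ERCC5 (61.6 CPM). It was the lone low library for GAPDH (2528 CPM), NME1 (174 CPM), ITPR3 (130 CPM, against 167 to 170 CPM in the other libraries), TUBB3 (14.5 CPM) and ERCC5 (5.35 CPM).

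Library 2 was low for AHNAK (129 CPM), TAF7 (16.8 CPM) and HOXB2 (6.96 CPM), and high for TPP1, a lysosomal peptidase (213 CPM against 33.5 to 47.2 CPM), HOXB9 (19.3 CPM), PEDS1-UBE2V1 (61.9 CPM) and MUC1 (4.58 CPM). Library 1 was low for RAB5B (23.4 CPM) and for DUSP3, a phosphatase (5.35 CPM against 62.8 to 68.8 CPM). It was high for ARPC5, a subunit of the actin-nucleating Arp2/3 complex (156 CPM against 18.9 to 31.7 CPM), LSM4 (56.7 CPM), ORAI2 (41.7 CPM), FABP3 (2.85 CPM) and ADIPOR2 (223 CPM against 215 to 216 CPM). Library 3 was low for PATL1 (195 CPM against 201 to 202 CPM). Library 4 was low for TOMM6 (7.99 CPM) and high for PPP1R18 (219 CPM against 12.8 to 61.3 CPM). For ADIPOR2 and PATL1 the gap was a few percent of the level.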

How the results depend on the processing

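Other scalings (library size alone, DESeq2 size factors, upper quartile) left 12958 to 12961 genes detected against 12949, and the same 25 genes on top. With a threshold of 0.5 or 2 CPM, 14200 or 11852 genes were detected, and leaving out each library in turn gave 13055 to 13174. The count of marker genes detected (85) was 103 at 0.5 CPM and 57 at 5 CPM. Of the 30 list counts, 4 moved by over 1.5 times at 0.5 CPM and 10 at 5 CPM, and 0 moved with another scaling. With mitochondrially encoded genes left out of the denominator, the 100 highest genes held 15.4% of counts instead of 22.3%, and ribosomal protein genes 2.97% instead of 2.69%, which follows from the smaller denominator. The common BCV of 0.318 was 0.376 for genes with a count in every library, 0.212 for genes of at least 10 CPM, and 0.298 to 0.326 when each library was left out. The BCV of the median gene was 0.203 with DESeq2 and 0.227 with edgeR. The median CV of 13.2% was 15.9% at 1 CPM, 17.0% with a count in every library, 10.4% to 13.5% when each library was left out (10.4% without library 5), and 13.1% without genes with a 4-fold gap, an alternative chosen after seeing the data. Ranked by the SD of log2 CPM, 65 of the 100 genes with the highest CV and 97 of the 100 with the lowest stayed among the 100.

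No paired analysis was possible because a single group was described and no groups were compared. Levels per length, isoform ratios per length and promoter bins by level per length were not run, since no feature lengths were at hand. Genes with few reads are limited by depth, as their CV and the limits of a 0 show.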
